A study of Homo sapiens with 8 samples.

Results

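Solute carriers are membrane proteins that move nutrients, ions, metabolites and transmitters across the plasma membrane and the membranes of organelles, and their genes carry the symbol SLC with a family number. The genes described here were all those of the deposited m1A table whose symbol begins with SLC and a number. They were 59 of the 4945 genes listed, with 103 of the 9962 listed positions. Of the 59, 54 belong to carrier families, among them SLC26A10, which RefSeq annotates as a pseudogene. The other 5 share the prefix only: SLC16A1-AS1 is an antisense RNA, SLC2A4RG a transcription factor, SLC4A1AP an adaptor protein, and SLC9A3R1 and SLC9A3R2 are scaffold proteins.

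The series silenced TRMT6 with small interfering RNA (siTRMT6) in a human neuroblastoma cell line and mapped N1-methyladenosine (m1A) on polyadenylated RNA with an antibody. The comparison was of 2 siTRMT6 with 2 control m1A libraries, and the labels describe the second condition only as control. Titles name the cells SK-N-BE, whereas the source and cell line fields give SK-N-AS, so the line is not settled by the labels. Nothing in the labels tells if the 2 replicates came from separate cultures, so p-values reflect the spread among these samples only, and that spread may be technical.

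TRMT6 is the partner of the catalytic subunit TRMT61A, and the pair methylates the T-loop of tRNA, besides stems of similar shape in other transcripts. Methylation at the N1 atom blocks base pairing, which is why m1A can stop or misdirect reverse transcription. Carriers bear on neuroblastoma cells through amino acid supply, mitochondrial exchange and the handling of noradrenaline, since these tumours arise from the sympathetic lineage.

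Sequence could be read at 5 of the 103 positions, those inside RefSeq promoter windows (GRCh38.p14), and it is shown because m1A is a mark of adenine. Each line gives 14 bases either side of the listed base, written 5′ to 3′ in the orientation of the transcript, with the listed base in capitals.
SLC35A5, plus strand, control 2, 6 reads, chr3:112562028-112562056: ccttccggaagcgtAacactgaacgtgcc
SLC35B1, minus strand, control 2, 8 reads, chr17:49707955-49707983: ctgctgggccctgcTggacagcggtcgca
SLC35B1, minus strand, siTRMT6 1, 8 reads, chr17:49707958-49707986: tgactgctgggcccTgctggacagcggtc
SLC38A2, minus strand, siTRMT6 1, 7 reads, chr12:46372736-46372764: cgacgccgccgcctTagaacgcctttcca
SLC25A29, minus strand, siTRMT6 1, 7 reads, chr14:100306495-100306523: ccccacccgggcccTgccggcaggcacga

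The listed base was A in the SLC35A5 transcript and T in the transcript orientation of the 4 minus-strand positions. On the forward strand of the genome all 5 were A. The same held over every listed position inside a RefSeq promoter window: 511 of 511 were A on the forward strand. Read along the transcript, all 170 positions of plus-strand transcripts were A and all 384 of minus-strand transcripts were T, where a position listed for both strands is counted in each. None of the 384 was A, which allows a share of up to 0.781% (3 counts in 384) among positions inside promoter windows. It sets no limit for positions outside these windows. At the minus-strand positions read here the listed base was therefore not an adenine of the listed transcript. Of the solute carrier positions, 40 (38.8%) lay on minus-strand transcripts, in 22 of the 59 genes, against 26.6% of all listed records. Bases at the other 36 were not read, so the doubt about the listed base touches every value of a minus-strand gene, and those with values in the text are SLC1A5, SLC2A1, SLC2A6, SLC7A1, SLC7A5, SLC16A1, SLC18A1, SLC19A1, SLC22A17, SLC25A28, SLC25A29, SLC25A39, SLC35B1, SLC35E2B, SLC37A4, SLC38A1, SLC38A2, SLC39A1 and SLC43A2. The T-loop motif GTTCNANNC, searched on both strands, was in none of the 5 windows and in 0.864% of the 463 complete windows of all genes. A missing motif says only that these letters are not in this window.

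Reads at listed positions ranged from 8655 in control 1 to 46007 in control 2, and these totals are not sequencing depth. Solute carriers took 57 reads in control 1, 522 in control 2, 440 in siTRMT6 1 and 102 in siTRMT6 2. These were 0.659%, 1.13%, 1.08% and 0.738% of the listed reads. The larger library of each condition therefore held most of the solute carrier reads. Of the noradrenergic markers, 7 of 10 had a listed position. Of the mesenchymal markers, 2 of 8 did. TRMT6 had no listed position and input values are not used here, so the silencing could not be checked, and fewer transcripts and less m1A per transcript cannot be told apart.

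Every one of the 103 solute carrier positions had reads in a single library, against 98.6% of all positions. Counts were 5 to 30 reads, with a median of 10 reads per position (9 over all positions). The authors' deposited table gave 51 of them as higher in siTRMT6 and 52 as lower, at an adjusted p below 0.05. Over all positions 49.6% were deposited as higher and 50.4% as lower, so the split of the solute carriers was close to the background. The size of each deposited value follows from the read count alone, because the authors' scale sets a condition without reads to 0.5. In the authors' deposited table the solute carriers ran from a log2 of -6.09 (SLC7A5, 30 control reads) to 5.14, and none was nearer to 0 than 3.40. A listed 0 may stand for an absence of reads or for a position that was not called there, which no source settles. Leaving out control 2 raised the share deposited as higher to 87.9%, and leaving out siTRMT6 1 lowered it to 16.1%, since each removes positions of 1 direction only.

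By gene, 20 of the 59 had reads in both conditions (33.9%, against 39.1% of all listed genes), 20 in controls only and 19 in siTRMT6 only. A single position was listed for 30 genes. SLC7A5, SLC18A1 and SLC4A8 had reads in 3 libraries, and none had reads in all 4. Reads of a gene with near-identical copies are uncertain, since the handling of reads with several matches is not given in the sources used here. RefSeq names 9 pseudogenes after SLC25A5, 3 after SLC25A3, 2 after each of SLC7A5, SLC25A39, SLC29A4 and SLC4A1AP, and 1 after each of SLC6A6, SLC16A1, SLC25A36 and SLC39A1.

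**Figure D1:**
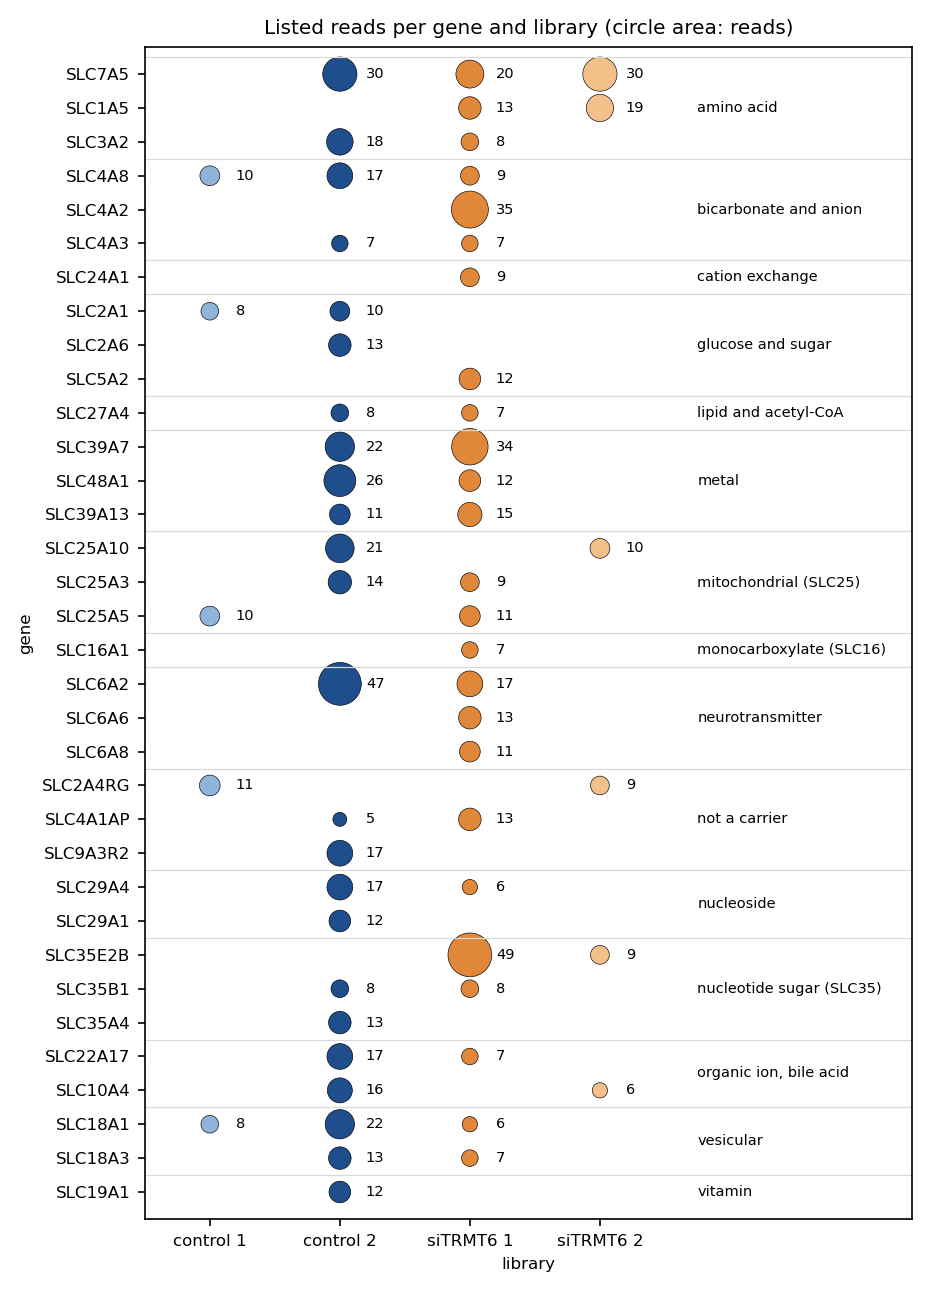
Reads at listed positions summed per gene (rows, grouped by transport class) in each of the 4 m1A libraries (columns), with circle area proportional to the printed read number and blanks for a listed 0. Most circles fall in control 2 and siTRMT6 1, the larger libraries, and no gene has a circle in all 4 columns.

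Amino acid carriers had the most reads of any class, 201 over 16 positions in 9 genes. The authors' deposited table gave 12 of the positions as higher and 4 as lower, where 49.6% of all positions were higher. SLC7A5 and SLC1A5 gave 3 of the higher positions each, and this split was not tested. Reads numbered 64 in control 2, 88 in siTRMT6 1, 49 in siTRMT6 2 and none in control 1. SLC7A5 encodes LAT1, which brings leucine and other large neutral amino acids into the cell. All 4 of its positions lay in the 3′ UTR on chromosome 16, on the minus strand, and its 2 pseudogenes leave its reads uncertain. The base with 30 reads in control 2 was 87832622, and the one with 20 reads in siTRMT6 1 was 87831053. In siTRMT6 2 the bases 87831804 and 87832173 carried 15 reads each. The conditions did not share a base, and they overlap in reads per library. SLC3A2, the heavy chain that carries LAT1 to the membrane, had 18 control 2 reads in coding sequence (chromosome 11, 62881367) and 8 siTRMT6 1 reads in its 5′ UTR (62856260). SLC1A5 encodes the glutamine carrier ASCT2 and had siTRMT6 reads only. On chromosome 19, 13 reads of siTRMT6 1 stood at 46777086 and 9 of siTRMT6 2 were 7 nt away. A further 10 reads of siTRMT6 2 stood at 46787883, where another transcript is also listed, and the gene is on the minus strand. The other members had 6 to 17 reads in 1 library each. SLC7A1 (17 reads), SLC38A1 (11), SLC38A2 (7), SLC7A6 (6) and SLC43A2 (6) were listed in siTRMT6 1, and SLC7A2, a carrier of cationic amino acids like SLC7A1, had 16 reads in control 2.

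Mitochondrial carriers of the SLC25 family exchange metabolites across the inner mitochondrial membrane, and 12 of the 48 in RefSeq were listed, with 17 positions. The authors' deposited table gave 8 as higher and 9 as lower. Most of these positions, 12, were in coding sequence. SLC25A10, the dicarboxylate carrier, had 21 control 2 reads (chromosome 17, 81704375) and 10 siTRMT6 2 reads (81704357); both bases are also listed for MRPL12, so the reads may belong to that gene. SLC25A3, which imports phosphate for ATP synthesis, had 14 control 2 reads and 9 siTRMT6 1 reads, 1517 nt apart. SLC25A5, an ADP/ATP carrier, had 10 control 1 reads and 11 siTRMT6 1 reads, 906 nt apart. These 2 genes and SLC25A39 have the pseudogenes counted above, so their reads are uncertain. SLC25A4, another ADP/ATP carrier, had 9 reads in control 2. Of the iron carriers called mitoferrins, SLC25A37 had 8 reads in siTRMT6 1 and SLC25A28 had 5 in control 1. SLC25A39, which carries glutathione, had 12 reads in siTRMT6 2. No direction was common to the family.

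Metal carriers had 154 reads at 13 positions in 6 genes, 6 positions deposited as higher and 7 as lower. SLC39A7 (ZIP7) releases zinc from the endoplasmic reticulum. In its coding sequence on chromosome 6, 22 control 2 reads stood at 33201367 and 17 siTRMT6 1 reads at 33201337, 30 nt away. A further 17 siTRMT6 1 reads stood in the 3′ UTR at 33204051. SLC48A1, a heme carrier of endosomes and lysosomes, had 20 control 2 reads (chromosome 12, 47781284) and 12 siTRMT6 1 reads (47781194) in the 3′ UTR, and 6 control 2 reads in the 5′ UTR. SLC39A13 (ZIP13) had 11 control 2 reads and 9 siTRMT6 1 reads at 3′ UTR bases 5 nt apart on chromosome 11, and 6 siTRMT6 1 reads in coding sequence. In these 3 genes control 2 and siTRMT6 1 thus held neighbouring bases with opposite deposited directions. SLC39A1 had 16 reads in control 2, SLC39A10 had 5 in control 1 and 6 in control 2, and SLC39A14 had 7 in siTRMT6 2.

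Glucose and sugar carriers were deposited mostly as lower: 5 of 6 positions, in 4 of 5 genes. SLC2A1 encodes GLUT1, the main glucose carrier of many cells, and had control reads only. The 10 reads of control 2 (chromosome 1, 42929936) and the 8 of control 1 were 5 nt apart in coding sequence, on the minus strand. SLC2A6 had 13 reads, SLC37A4 (the glucose 6-phosphate carrier) 10 and SLC2A8 5, all in control 2. The siTRMT6 position of the class belonged to SLC5A2 (SGLT2), with 12 reads in siTRMT6 1 at a base that is also listed for C16orf58. With 6 positions, most from control 2, this split describes those libraries and was not tested.

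Carriers of transmitters include SLC6A2, the noradrenaline transporter, which takes noradrenaline back into sympathetic neurons and imports the tracer MIBG used to image neuroblastoma. All 3 of its positions were in the 3′ UTR on the plus strand of chromosome 16. Reads of control 2 numbered 24 (base 55702648) and 23 (base 55703473), and 17 reads of siTRMT6 1 stood between them (base 55703067). The authors' deposited table gave these bases log2 values of -5.77, -5.71 and 4.90, so opposite directions stood 406 nt apart in the same UTR. SLC6A6, a taurine carrier, had 13 reads and SLC6A8, the creatine carrier, 11, both in siTRMT6 1. Vesicular carriers load transmitters into secretory vesicles. SLC18A1 (VMAT1, for monoamines) had 8 reads in control 1, 14 and 8 in control 2 and 6 in siTRMT6 1 over 4 positions on the minus strand. SLC18A3, the vesicular acetylcholine transporter, had 13 reads in control 2 in coding sequence and 7 in siTRMT6 1 in its 5′ UTR. Of the 6 vesicular positions, 2 were deposited as higher and 4 as lower.

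**Figure D2:**
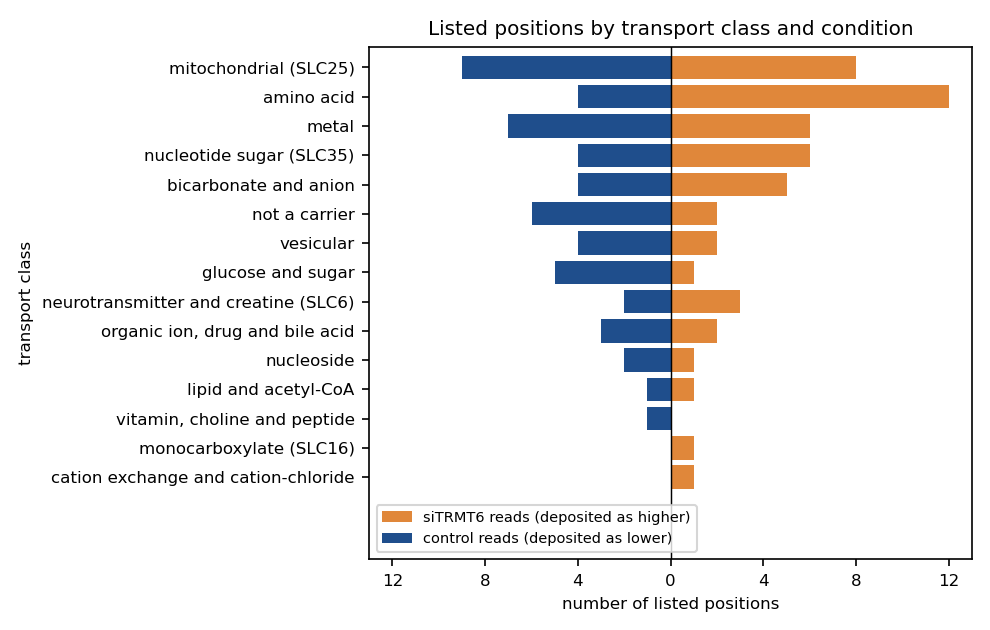
Number of listed positions in each transport class, drawn to the right for positions with siTRMT6 reads and to the left for positions with control reads. Amino acid carriers had 12 positions on the siTRMT6 side and 4 on the control side, glucose and sugar carriers 1 and 5, and mitochondrial carriers 8 and 9. These splits were not tested.

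Among the remaining classes, SLC35E2B had the most listed positions of any solute carrier, 5, all with siTRMT6 reads. It is an orphan member of the nucleotide sugar carrier family on the minus strand of chromosome 1. Reads in siTRMT6 1 numbered 14, 14 and 15 at 3 bases of the 3′ UTR and 6 in the 5′ UTR, and siTRMT6 2 had 9 reads 20 nt from one of the 14-read bases. SLC35E2A, a related gene that RefSeq annotates as a pseudogene, could share its reads. SLC35B1, which exchanges ATP and ADP across the endoplasmic reticulum membrane, had 8 reads in each of control 2 and siTRMT6 1, with the bases shown above. Bicarbonate carriers regulate pH: SLC4A2 had 15 and 20 reads in siTRMT6 1 only, SLC4A3 had 7 reads in each of control 2 and siTRMT6 1, 3 nt apart, and SLC4A8 had 10 reads in control 1, 7 and 10 in control 2 and 9 in siTRMT6 1. The pseudogene SLC26A10, placed in the same class by its family number, had 12 reads in siTRMT6 1.

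Several other classes had 1 or 2 listed genes each. SLC29A4, a monoamine and nucleoside carrier, had 17 reads in control 2 and 6 in siTRMT6 1, and the nucleoside carrier SLC29A1 had 12 in control 2. SLC22A17, a receptor for lipocalin-2, had 8 and 9 reads in control 2 and 7 in siTRMT6 1, the last 2 values at 5′ UTR bases 2 nt apart. SLC10A4 had 16 reads in control 2 and 6 in siTRMT6 2. SLC27A4, a fatty acid carrier, had 8 reads in control 2 and 7 in siTRMT6 1. SLC19A1, the reduced folate carrier, had 12 reads in control 2. SLC16A1, the lactate carrier MCT1, had 7 reads in siTRMT6 1, and SLC24A1, a calcium exchanger, had 9. Phosphate and sulphate carriers had no listed position among the 10 genes of those families in RefSeq. By comparison, 15.3% of the 386 protein-coding SLC genes in RefSeq were listed, and the difference was not tested. Of the 5 genes that share the prefix only, SLC2A4RG had 11 reads in control 1 and 9 in siTRMT6 2, SLC4A1AP 5 in control 2 and 13 in siTRMT6 1, and the other 3 had control 2 reads only.

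By the transcript listed first, 54 positions (52.4%) were in coding sequence, 30 (29.1%) in the 3′ UTR, 18 (17.5%) in the 5′ UTR and 1 in a non-coding RNA. Over all listed records the shares were 61.7%, 21.1% and 11.3% for coding sequence, 3′ UTR and 5′ UTR. The difference was not tested. Minus-strand transcripts held 15 of the 30 solute carrier positions in the 3′ UTR, 9 of the 18 in the 5′ UTR and 29.6% of those in coding sequence, against 29.7% (3′ UTR), 60.9% (5′ UTR) and 17.6% (coding sequence) of all records. At every minus-strand position that could be read the listed base was not an adenine of the transcript, so the region shares carry that doubt. The classes differed among themselves: all 6 glucose and sugar positions but 1 were coding, whereas the 5 SLC6 positions and the 10 SLC35 positions were all in UTRs. Median reads per position were 13.5 in the 3′ UTR, 9.5 in coding sequence and 7 in the 5′ UTR. The deposited directions were mixed in each region, with 16 higher and 14 lower in the 3′ UTR, 25 and 29 in coding sequence and 10 and 8 in the 5′ UTR.

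Positions of different libraries stood close together in some genes. The difference between solute carriers and all genes, given next, was not tested. In 24 solute carrier genes at least 2 libraries had a position, and in 9 of them (37.5%) the nearest pair was within 30 nt, against 45.1% of the 2233 such genes in the whole table. In 6 genes the pair was within 10 nt: SLC22A17, SLC35B1, SLC4A3, SLC2A1, SLC39A13 and SLC1A5. Within each of these 6 pairs the raw read counts were alike, for example 9 and 7 in SLC22A17 and 11 and 9 in SLC39A13. They were not scaled for library totals. In SLC2A1 the 10 reads of control 2 were from 46007 listed reads and the 8 of control 1 from 8655. For SLC2A1 and SLC1A5 the pair joined both replicates of 1 condition, and for the other 4 it set control 2 beside siTRMT6 1. Without control 2 or without siTRMT6 1, 2 of the 9 genes were left.

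**Figure D3:**
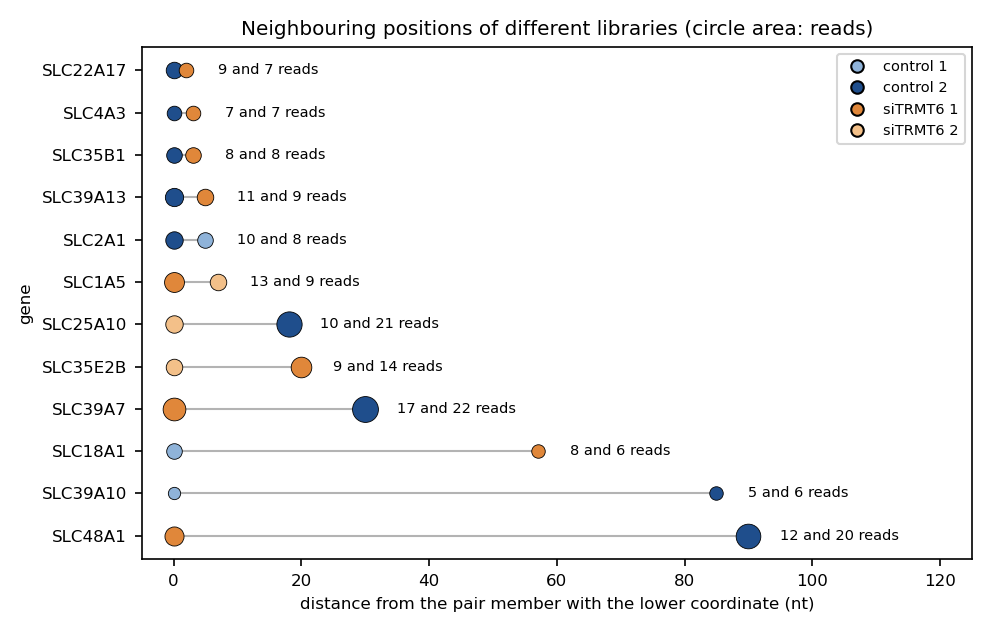
For the 12 solute carrier genes whose nearest positions of different libraries lay within 100 nt, the pair is drawn by its distance in nt (horizontal axis), coloured by library, with circle area proportional to reads. The pairs span 2 nt (SLC22A17) to 90 nt (SLC48A1), and in 8 of the 12 a control library stands beside a siTRMT6 library.

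To compare conditions over such stretches, positions of a gene within 200 nt were joined, which gave 91 solute carrier regions. Both conditions had reads in 8, or 16.0% of the 50 with control reads, against 28.8% over all genes. The log2 of summed siTRMT6 over summed control reads, corrected for the total listed reads of both conditions, had a median of -0.37 in the 8 regions and -0.15 in the 1470 regions of all genes. SLC25A10 was lowest, with 10 siTRMT6 and 21 control reads, a log2 of -1.07 and an exact 95% binomial interval of -2.32 to 0.08. SLC48A1, with 12 and 20 reads, had -0.73 (-1.90 to 0.37), and SLC39A7, with 17 and 22 reads, had -0.37 (-1.37 to 0.61). SLC35B1 and SLC4A3 had equal reads in both conditions. These intervals cover counting error only, and each of the 8 included 0. A difference of at least 2-fold was seen in SLC25A10 alone, and in 6.26% of the regions of all genes. Such regions were listed because each condition had a position there, which favours ratios near 1. On the authors' scale each value was 0.19 lower and the median was -0.55. Without siTRMT6 2 the median was 0.06 over 7 regions. Leaving out siTRMT6 1 left SLC25A10 alone, whose siTRMT6 reads were all from siTRMT6 2. Its log2 was then 0.91, so the sign of the lowest region depends on the libraries used for scaling. Leaving out control 2 left SLC18A1 alone, at -3.07.

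**Figure D4:**
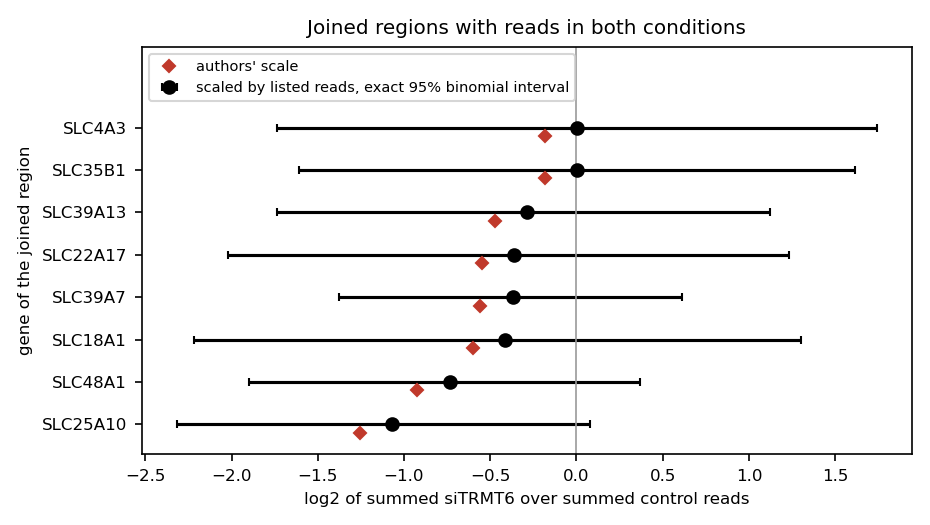
Log2 of summed siTRMT6 over summed control reads (horizontal axis) in the 8 joined solute carrier regions with reads in both conditions, with exact 95% binomial intervals that cover counting error only; diamonds show the same ratio on the authors' scale. Every interval includes 0, from SLC25A10 at -1.07 to SLC35B1 and SLC4A3 at 0.

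The 4 libraries were then compared as replicates with edgeR's quasi-likelihood test. No solute carrier position was tested: none of the 103 passed the filter on low counts, since none had reads in more than 1 library; edgeR tested 34 positions of the whole table and called 64.7% of them, a share that fell to 0 with DESeq2, without the filter, with the replicate number as a block and with any 1 library left out. Summed per gene, 8 solute carriers passed that filter and 0 were called, as were 0% of the 975 genes tested (128 at an unadjusted p under 0.05; DESeq2 called 1 gene, no solute carrier). SLC35E2B had no listed reads in either control and 49 and 9 in the siTRMT6 libraries (edgeR adjusted p = 0.381). It passed the filter through its siTRMT6 reads alone, so its p supports nothing, also where the unadjusted value is under 0.05. Its fitted log2 of 7.74 depends on the prior count, as the controls had no listed reads. SLC18A1 followed, with 8 and 22 control reads against 6 and 0. SLC4A8 had 10 and 17 against 9 and 0. Their fitted log2 values were -2.37 and -1.76, and the edgeR adjusted p was 0.9997 for both. These genes reached the filter's cutoff in the control libraries alone, so their p supports nothing either. Single libraries set the size of these values: without siTRMT6 1 they were -6.69 and -6.60, where the remaining siTRMT6 library had no listed reads and the prior count decides the value, and without siTRMT6 2 they were -1.39 and -0.74. With the replicate block they were -3.44 and -3.09, and neither gene was called under any of these settings. Summed per joined region, 2 solute carrier regions were tested and 0 called, beside 0% of 525 (131 at an unadjusted p under 0.05, none a solute carrier; DESeq2 called 1). The genes that passed the filter are those with reads in several libraries and do not stand for all 59.

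Genes with the symbols of other transporter families, and carrier partners, were counted for comparison. Of 95 such genes in RefSeq, 19 were listed (20.0%). NHERF1 and NHERF2, named SLC9A3R1 and SLC9A3R2 in the deposited table, are not among the 19. Among the 19 are ABCE1 and ABCF1, which share the ABC symbol but are not membrane transporters. The share was 15.3% for protein-coding genes now named SLC in RefSeq (59 of 386) and 22.0% for all protein-coding genes. Of those SLC genes, 4 were listed under older names, and MFSD5 of these is also among the 19. The shares were therefore not counted alike. The 19 genes had 57 positions, 26 higher and 31 lower in the authors' deposited table. BSG, the membrane partner of the lactate carrier SLC16A1, had 19, 8, 67 and 0 reads in control 1, control 2, siTRMT6 1 and siTRMT6 2. ABCC1, a drug efflux pump, had 22, 11, 24 and 6. ABCC1 therefore had reads in all 4 libraries, which no solute carrier had.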

How the data were processed

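A single deposited table of 25539 lines was analysed. The authors used STAR and FastQC 0.11.3 on build hg38, per the submitters' processing notes. How positions were called, counted and tested is not given in the sources used here. The deposited columns are, per the file headers, 4 read counts, the authors' log2 fold change, and a p-value with its adjusted p-value. The count columns are named by condition and number, and were taken as the m1A libraries. Input values are not used here. Sites are listed counting from 0 and given here counting from 1.

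Each position was counted once per gene. The members, transport classes and lists were chosen with earlier results of these data known. Genes are named where they had reads in 3 libraries, were among the 3 with most reads in a class or the 5 with most positions, or had the 3 smallest edgeR p; other members named were chosen after their values were seen. Counts per position, gene and joined region were tested over the whole table with edgeR 4.0.16 in R 4.3.3 (TMM, filterByExpr with a minimum count of 10, quasi-likelihood test, Benjamini-Hochberg at 0.05); DESeq2 1.42.0 was an alternative. The steps were tested on simulated data. The simulated dispersion, a measure of spread between replicates, was 0.05, against 2.59 fitted to the gene sums. The simulation therefore cannot show how many real changes these tests would find. All 59 symbols matched RefSeq (GRCh38.p14). Sequence windows reach 14 nt rather than the planned 15 nt either side.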

Additional observations from a re-analysis of the deposited data

How the results depend on the processing

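No solute carrier position entered the test with DESeq2, equal library sizes or the replicate block, so these settings show nothing about the positions. Without the filter all 103 entered, and 2 to 20 did when 1 library was left out; 0 were called, and without the filter no position of the whole table reached an unadjusted p under 0.05. For gene sums and joined regions 0 solute carriers were called under DESeq2, equal library sizes, no filter, the replicate block, other join distances or leaving out each library. For the whole table, the 22 calls at single positions fell to 0 with DESeq2, without the filter and with the replicate block, and were 0 to 0 when each library was left out. Gene sums and joined regions had 0 calls, except 1 each with DESeq2. Replicate differences of the conditions had a correlation of -0.0937 over 975 genes. Many of these genes lacked reads in some libraries, so this value cannot tell if replicate numbers pair the libraries. The replicate block changed no other call.

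Of the 103 positions, 53 had at least 10 reads, and these lay in 38 of the 59 genes. Leaving out 1 library gave 42 to 58 genes, 58 to 96 positions and 16.1% to 87.9% deposited as higher. The median log2 of joined regions ran from -3.07 to 0.91, where each end rests on a single region. Genes with a pair within 30 nt numbered 2 to 8. Fewer libraries leave fewer positions by construction. Without the 5 genes that share the prefix only, a choice made after seeing the data, 95 positions were left, 51.6% of them higher. Each position had 5 to 30 reads in 1 library; sequencing depth is not known from the listed totals, and what it limits was not measured.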

Other observations

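Outside the symbol rule, 4 listed genes are now named by RefSeq as solute carriers. TMEM104 (SLC38A12) had 11 reads in control 2 and 9 in siTRMT6 1, and MFSD5 (SLC61A1) had 5 and 12 in the same libraries. TMCO3 (SLC9D1) had 22 reads in control 2, and HIAT1 (SLC71A1) had 7 in siTRMT6 1.

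Neighbouring listed positions of 1 library in a solute carrier gene were 369 nt (SLC7A5 in siTRMT6 2) to 67888 nt apart (SLC7A2 in control 2). The nearest positions of different libraries were 2 to 25107 nt apart over 24 genes, 12 of them within 100 nt. In SLC7A5 they were 449 nt apart, farther than its positions within siTRMT6 2, and the same gaps were not counted over the whole table. In SLC6A2 the control 2 positions were 825 nt apart, and in SLC35E2B neighbouring siTRMT6 1 positions of the 3′ UTR were 830 and 832 nt apart.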
